A study of Mus musculus with 9 samples.

Results

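The genes described here carry out or control glucose handling in liver. They are 38 genes of the 16521 in the deposited tables, taken from a list of named genes with the condition that each stands in both tables with a mean of at least 10 normalised reads, a condition met by 12477 genes. The 38 are by definition genes that met it, and no comparison between groups entered the condition. The list itself was chosen with earlier results of these data known. Its counts and medians beside those of all genes therefore describe this list only. Of these genes 6 serve the entry and phosphorylation of glucose, 14 glycolysis and the step to lactate, 5 gluconeogenesis and the release of glucose, 3 the control of pyruvate dehydrogenase, 7 glycogen, and 3 the reception of insulin. Liver RNA of C57BL/6 mice was sequenced in 9 samples. The normal group (n = 3) was given saline and not the methionine-choline-deficient (MCD) diet. The model group (n = 3) was fed the MCD diet, which is widely used to bring on fatty liver with inflammation in rodents, and the third group (n = 3) was fed the same diet and treated with a high dose of sarsasapogenin (SAR), a steroidal sapogenin of plant origin. The labels do not state the amount of SAR, the days of feeding, the age or sex of the mice, or whether the model group received a vehicle. No label ties the samples to separate mice. The p-values below therefore measure the spread among these samples alone, and that spread may be technical.

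Hepatocytes take up glucose through GLUT2, trap it as glucose 6-phosphate, and either store it as glycogen or break it down through the liver isoform of pyruvate kinase. In fasting they release glucose, which they make from lactate and amino acids through pyruvate carboxylase, phosphoenolpyruvate carboxykinase and fructose bisphosphatase, and export by way of the glucose 6-phosphate transporter and glucose-6-phosphatase. Insulin acts through its receptor and the substrates IRS1 and IRS2 to favour storage. Most other cells rely on other isoforms of the same steps, among them hexokinases of the low-Km type, platelet phosphofructokinase and muscle pyruvate kinase, which are also used by macrophages and dividing cells.

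Values are normalised reads, that is the reads of a gene in a library divided by the size factor of the library. The reads per library were recovered from the deposited group means, and the libraries of a group are named a, b and c in falling order of size factor, with no tie to replicate numbers. Reads recovered per library ranged from 6364157 to 14939063. For 35 of the 38 genes all 9 libraries were recovered. Ldha and Fbp1 were not recovered in the normal group, nor Pck1 in the normal and SAR groups. Fold changes are differences of log2(normalised reads + 1), tested with limma over all genes with a mean of at least 10 in the comparison, and a gene is said to rise or fall where its adjusted p (Benjamini-Hochberg over all genes tested) is below 0.05. Fold values are 2 to the power of that difference. Exons of 14 of the 38 genes overlap a gene of the opposite strand in the GENCODE annotation, among them Hk1, Hk3, Pfkp, Pfkfb1, Aldoa, Tpi1, Gapdh, Pklr, Pck2, Ugp2, Irs1 and Irs2. No strand setting of the counting is stated, so reads of such partners cannot be told apart. Exons of Pkm overlap Gm49759 on the same strand, where a strand setting could not separate the reads. Normal library c and model library c were unlike the others of their group, with correlations of log2 values across genes of 0.925 to 0.934 and 0.928 to 0.941, against 0.977 and 0.98 between libraries a and b. The summed level of 12 neutrophil markers was 8265 normalised reads in normal library c, while normal libraries a and b had 108.5 and 253.6. The summed level of 10 stellate cell and fibroblast markers was 11020 in model library c against 26790 and 23230 in model libraries a and b. The hepatocyte markers Hnf4a and Serpina1a were present in every library, the latter at 12260 to 35070 normalised reads.

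In the model group, genes of glucose handling moved in both directions. Of 35 genes tested against normal, 9 rose and 14 fell, which is 23 where 39.3% of all genes tested were called, 20.0% higher and 19.3% lower. The rises were in the hexokinases Hk1, Hk2 and Hk3, in Pfkp, Aldoa and Pkm, in the mitochondrial carboxykinase gene Pck2, in Pdk4 and in the glycogen-targeting subunit gene Ppp1r3g. The falls lay in glycolysis (Pfkfb1, Tpi1, Pgk1, Pgam1, Pklr), glucose production (Pcx, Slc37a4), glycogen (Pygl, Gbe1, Ppp1r3b, Ppp1r3c), the kinases Pdk1 and Pdk2 and the insulin receptor gene Insr. The median log2 fold change of the 35 genes was -0.50, beside 0.02 over all genes tested. The values of the groups did not overlap for 24 of the 35 genes, where 54.0% of all genes tested did not overlap. Without normal library c and model library c, a choice made after seeing the data, 10 rose and 18 fell, and 7288 of 12525 genes were called in all. Without model library b, 8 rose and 6 fell, and 2438 of 12322 genes were called in all.

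In the SAR group, 11 of 37 genes tested were higher than in the model group and 9 were lower, which is 20 where 28.8% of all genes tested were called, 12.3% higher and 16.5% lower. Higher were Gckr, Pfkfb1, Pklr, Slc37a4, Pdk1, Pdk2, Pygl, Ugp2, Ppp1r3b, Ppp1r3c and Insr, and lower were Hk1, Hk2, Hk3, Pfkp, Aldoa, Pkm, Pck2, Pdk4 and Irs2. The median was 0.49 on the log2 scale, beside -0.01 over all genes tested, and 21 of the 37 genes did not overlap, where 45.0% of all genes tested did not. This comparison and the one of model with normal share the 3 model libraries, so their directions are not independent, and the values of each are given side by side below. Without model library c, 18 were higher and 9 lower, where 5129 of 12441 genes were called in all. Without model library b, 4 were higher and 7 lower, where 1535 of 12330 were called. Between SAR and normal, 1 of 35 genes was called, Hk3, where 3.53% of all genes tested were called. The values of SAR and normal did not overlap for 14 of the 35 genes, where 33.1% of all genes tested did not. Without normal library c, Gckr, Ugp2 and Hk3 were called higher and Pdk4 and Irs2 lower in the SAR group, where 1105 of 11746 genes were called in all. The call of Hk3 was lost without any other 1 library.

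**Figure D1:**
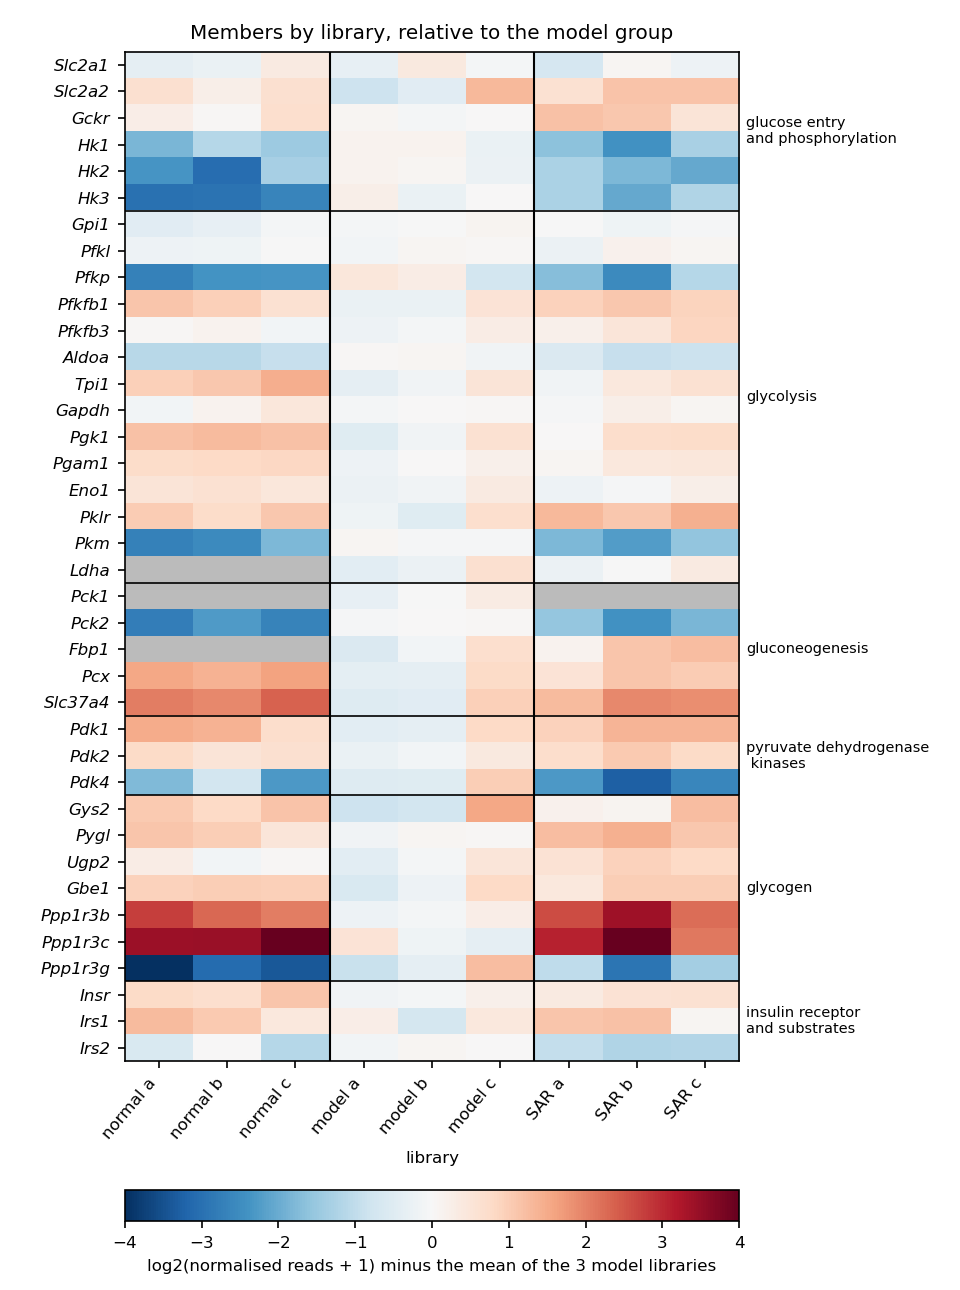
Colour map of the 38 genes (rows, grouped by role) in the 9 libraries (columns). Colour is log2(normalised reads + 1) minus the mean of the 3 model libraries, with colours ending at 4 in either direction, and grey marks values that were not recovered. Ppp1r3b and Ppp1r3c are red in the normal and SAR libraries, and Hk3, Pfkp, Pkm and Pck2 are blue there.

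**Figure D2:**
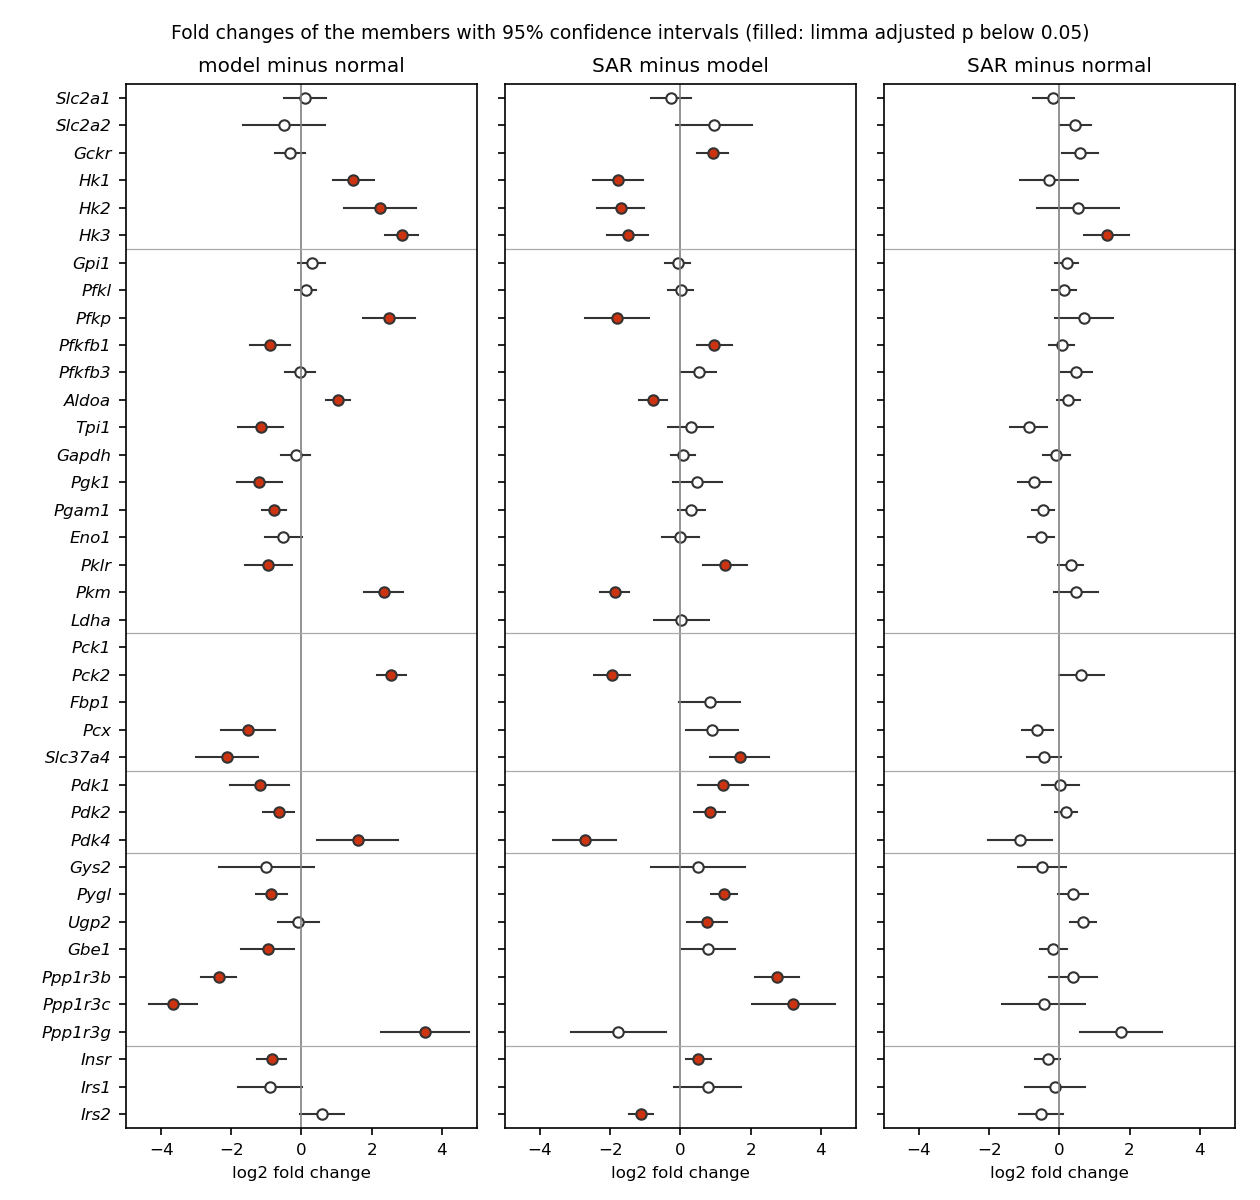
Log2 fold change of each gene (points) with its 95% confidence interval (lines) from limma in the 3 comparisons, with filled points for adjusted p below 0.05. Rows follow the roles in the text, and a missing point is a gene not recovered in a group. The third panel has 1 filled point, Hk3.

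Of 6 genes of glucose entry and phosphorylation, 3 rose in the model, and with SAR 1 was higher and 3 were lower than in the model. Among all genes tested, 20.0% rose in the model, and 12.3% were higher and 16.5% lower with SAR. The genes of the transporters GLUT1 (Slc2a1) and GLUT2 (Slc2a2) passed the test in neither comparison with the model. Slc2a1 ranged from 155.1 to 325.1 normalised reads over the 9 libraries, and its model and normal libraries overlapped. Slc2a2 stood at 2788, 2121 and 2770 normalised reads in the normal libraries, at 1006, 1299 and 4414 in the model libraries and at 2719, 3928 and 3979 in the SAR libraries. Model library c was the highest of the 9, and the other model libraries were the lowest. Without model library c, Slc2a2 was lower in the model than in the normal group (log2 -1.15, limma adjusted p = 0.00404) and higher in the SAR than in the model group (log2 1.61, adjusted p = 3.61e-04). Gckr encodes a regulatory protein of glucose phosphorylation in hepatocytes. Its values were 1449, 1251 and 1948 in the normal, 1269, 1143 and 1225 in the model and 2736, 2545 and 1743 in the SAR libraries. The SAR libraries were all above the model libraries, a log2 difference of 0.92 (SE 0.20, limma adjusted p = 0.0104), while model and normal libraries overlapped (log2 -0.33, adjusted p = 0.187). The call against the model was lost without model library b (adjusted p = 0.0528).

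Hk1, Hk2 and Hk3 encode hexokinases with a high affinity for glucose. Hk1 stood at 36.5, 59.4 and 47.4 normalised reads in the normal libraries, at 145.5, 145 and 110.8 in the model libraries and at 41.8, 24.2 and 53.9 in the SAR libraries. Every model library lay above every other library. The log2 fold change was 1.48 (SE 0.25, limma adjusted p = 0.00503) against normal and -1.78 (SE 0.32, adjusted p = 0.00529) for SAR against model. Hk2 stood at 16.3, 9.71 and 34.2 in the normal, 97.2, 91.6 and 74.9 in the model and 35.8, 24.2 and 20.5 in the SAR libraries. Here too the model libraries overlapped with no other library, and normal and SAR libraries overlapped with each other. Hk2 rose by 2.24 (log2, SE 0.45, limma adjusted p = 0.00826) in the model and was lower with SAR than in the model (log2 -1.70, SE 0.30, adjusted p = 0.00497). Hk3, a hexokinase gene of myeloid cells, stood at 45.1, 45.3 and 57.3 in the normal, 428.5, 297.6 and 368.3 in the model and 150.3, 85.9 and 156.4 in the SAR libraries. Its groups formed 3 separate steps. Hk3 rose 7.24-fold in the model (log2 2.86, SE 0.20, limma adjusted p = 5.08e-04), was lower with SAR than in the model (log2 -1.50, SE 0.26, adjusted p = 0.00452), and remained higher with SAR than in normal liver (log2 1.35, SE 0.28, adjusted p = 0.0443). This last call was lost without any 1 of the libraries other than normal library c, with no filter on low values and with limma-voom, at adjusted p from 0.0515 to 0.141.

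Summed markers of 4 other cell types were highest in the model libraries, as were these hexokinase genes and, below, Pfkp, Aldoa, Pkm, Pck2, Pdk4 and Ppp1r3g. The summed level of 15 macrophage markers was 6130 to 9191 normalised reads in the normal, 18120 to 20820 in the model and 5976 to 8765 in the SAR libraries. Of the 15, 9 rose and 3 fell in the model, and 10 were lower with SAR than in the model. Over all genes tested, 20.0% rose and 19.3% fell in the model, and 16.5% were lower with SAR. The marker counts of the main fits below stand beside these shares. Between SAR and normal, 6 of the 15 were higher and 3 lower, where 3.53% of all genes tested were called. The similar sums of those groups thus hold changes in both directions. The 9 measured T and NK cell markers summed to 111.1 to 143.3, 560.4 to 752.6 and 180.3 to 323.4, and the 9 cholangiocyte markers to 587.7 to 860.8, 2101 to 11060 and 820.7 to 1732. The 10 stellate cell and fibroblast markers summed to 1055 to 4589, 11020 to 26790 and 3795 to 6796. In the model 8 of 9 T and NK cell, 8 of 9 cholangiocyte and 7 of 10 stellate cell markers rose. In each of these 4 lists the sum of every model library was above that of every normal and SAR library. Most of the cholangiocyte sum was 1 gene, Spp1, at 8392, 9532 and 1770 normalised reads in model libraries a, b and c. Sox9 of that list overlapped, with 104.4 in model library c and 106.9 in normal library c. The 12 neutrophil markers summed to 108.5 to 8265, 1273 to 2941 and 236 to 605.3, with 1 of 11 tested higher in the model and 8 lower with SAR than in the model. Without normal library c, 10 of 11 neutrophil markers rose in the model, where 2576 of all 12520 genes tested rose. The cholangiocyte markers that rose in that fit numbered 4 of 9. The 8 endothelial markers summed to 1687 to 3630, 1535 to 1820 and 962 to 1891, and the 5 erythroid markers to 1530 to 3115, 1570 to 1719 and 1534 to 1843. The sums of these 3 lists overlapped between model and normal libraries. Of 8 endothelial markers, 0 rose and 3 fell in the model, and of 3 erythroid markers tested, 0 rose and 2 fell. No marker of any list was at 0 over a group. Of 11 hepatocyte markers, 3 were recovered in all libraries, and they summed to 42340 to 46340, 19000 to 27370 and 47830 to 51400, with the model libraries lowest. Only 1 of the 3 fell in the model and 0 rose, and 2 were higher with SAR than in the model. Serpina1a did not pass in the model against normal (limma adjusted p = 0.102). The part of these markers in the values of any gene here was not tested. In bulk RNA, fewer cells of a type and less RNA per cell cannot be told apart.

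Glycolysis had 3 genes that rose, 5 that fell and 5 that passed in neither direction among 13 tested in the model. With SAR, 2 of 14 were higher than in the model, 3 were lower and 9 did not pass. Over all genes tested, 20.0% rose and 19.3% fell in the model, and 12.3% were higher and 16.5% lower with SAR. The glycolysis genes that rose were Pfkp, Aldoa and Pkm. Pfkp, the platelet phosphofructokinase gene, stood at 42.2, 52.9 and 54 normalised reads in the normal, 385.3, 348 and 169 in the model and 87.1, 47.2 and 127 in the SAR libraries. The model libraries were the highest, and model library c lay well under the other model libraries. Pfkp rose by 2.49 (log2, SE 0.32, limma adjusted p = 0.00219) and with SAR was lower than in the model (log2 -1.80, SE 0.40, adjusted p = 0.0127), a result lost without model library a or b (adjusted p = 0.0531 and 0.0534). Pfkl, the liver phosphofructokinase gene, ranged from 310.2 to 415 over the 9 libraries, with a log2 difference of 0.12 (95% confidence interval -0.18 to 0.43) in the model and 0.01 (-0.35 to 0.37) with SAR.

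Aldoa, the aldolase gene of muscle and most other tissues, stood at 1587, 1583 and 1787 in the normal, 3533, 3578 and 3092 in the model and 2283, 1794 and 1868 in the SAR libraries. The 3 groups did not overlap, with the model highest and normal lowest. It rose by 1.04 (log2, SE 0.15, limma adjusted p = 0.00314) and was lower with SAR than in the model (log2 -0.78, SE 0.17, adjusted p = 0.0123), the latter call lost without model library b or SAR library b or c (adjusted p up to 0.0639). Tpi1, the triosephosphate isomerase gene, fell from 6005, 6581 and 8500 in the normal to 2394, 2828 and 4405 in the model libraries, with 2817, 4126 and 4737 in the SAR libraries. Model and SAR libraries overlapped, and both lay below the normal ones. The log2 fold change was -1.16 (SE 0.28, limma adjusted p = 0.0152) in the model, 0.29 (adjusted p = 0.457) for SAR against model and -0.87 (adjusted p = 0.0729) for SAR against normal. Pgk1 (log2 -1.20, SE 0.27, limma adjusted p = 0.0127) and Pgam1 (log2 -0.77, SE 0.15, adjusted p = 0.00739), which encode the kinase and the mutase that follow, also fell. For both, the SAR libraries overlapped with the model libraries and lay below the normal ones, with 1859 to 3090 normalised reads of Pgk1 in SAR against 4133 to 4397 in normal liver. Without model library c, Pgk1 was higher with SAR than in the model (log2 0.79, adjusted p = 0.022). Without model library b, the fall in the model was lost for Tpi1 (adjusted p = 0.0705) and Pgk1 (adjusted p = 0.0575), and without model library a for Tpi1 (adjusted p = 0.0536).

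Gpi1, Gapdh and Eno1, for the isomerase, the dehydrogenase and the enolase, passed the test in none of the 3 comparisons. Gapdh ranged from 1696 to 2489 normalised reads over the 9 libraries, with a log2 difference of -0.16 (95% confidence interval -0.57 to 0.25) in the model. Eno1 stood at 5843 to 6452 in the normal, 3611 to 5494 in the model and 3716 to 4978 in the SAR libraries. Its normal libraries were above all others, and without model library c it was lower in the model (log2 -0.70, limma adjusted p = 0.012). Ldha, the lactate dehydrogenase gene of liver and muscle, had group means of 32275 in normal and 12779 in model liver in the authors' deposited table, a fold of 0.396 with an adjusted p of 2.1e-06 in the authors' DESeq test. Between SAR (9261, 10780 and 13880) and model libraries (8190, 9316 and 17020) Ldha overlapped, with a log2 difference of 0.03 (95% confidence interval -0.75 to 0.81). Many glycolytic genes, among them Gapdh, Eno1, Pgk1, Aldoa, Tpi1, Pgam1, Ldha and Pkm, have processed pseudogene copies with which reads may be shared, so their values are uncertain to that extent.

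The enzymes that set fructose 2,6-bisphosphate, an activator of glycolysis, were Pfkfb1 and Pfkfb3. Pfkfb1, the liver form, stood at 827.7, 747.8 and 586.3 normalised reads in the normal, 317.6, 316 and 554.1 in the model and 726.6, 810.7 and 710.4 in the SAR libraries. The model libraries were lowest, with model library c just below normal library c. Pfkfb1 fell by 0.90 on the log2 scale (SE 0.25, limma adjusted p = 0.0249) and was higher with SAR than in the model (log2 0.97, SE 0.22, adjusted p = 0.0141). The fall was lost without normal library a or b or model library a or b (adjusted p up to 0.0936), and the difference with SAR without model library a or b or SAR library b (adjusted p up to 0.0624). Pfkfb3, a form induced in many tissues, passed in no comparison and was between 148.4 and 311.6.

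At pyruvate kinase the isoform genes moved in opposite directions. Pklr encodes the isoform of hepatocytes and Pkm that of muscle, macrophages and dividing cells. Pklr stood at 478.2, 387.4 and 498.2 normalised reads in the normal, 206.7, 166.4 and 372.3 in the model and 573.9, 498.5 and 629.6 in the SAR libraries. All model libraries were below the others. Its log2 fold change was -0.95 (SE 0.29, limma adjusted p = 0.0349) in the model, a result lost without any 1 library other than model library c (adjusted p 0.0565 to 0.117), and 1.27 (SE 0.27, adjusted p = 0.0111) for SAR against model. Pkm stood at 158.4, 179.1 and 302 in the normal, 1105, 1008 and 1020 in the model and 301.9, 221.4 and 347.5 in the SAR libraries. The model libraries lay far above every other library. Pkm rose 5.08-fold (log2 2.34, SE 0.24, limma adjusted p = 0.0012) and with SAR was at 0.274 of the model level (log2 -1.87, SE 0.18, adjusted p = 6.03e-04). Reads of Pkm per read of Pklr, not corrected for length and so compared between libraries only, were 0.331, 0.462 and 0.606 in the normal libraries. They were 5.35, 6.06 and 2.74 in the model libraries and 0.526, 0.444 and 0.552 in the SAR libraries. Pkm reads outnumbered Pklr reads in the model libraries and in no other.

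The promoters of the pair are shown because their reads moved in opposite directions. Each is the 250 bases before a RefSeq start (GRCm38.p6, plus strand), at chr3:89136373-89136622 for the start of Pklr that lies farther downstream and chr9:59656977-59657226 for Pkm. Capitals mark the carbohydrate response element (CACGNG and CNCGTG with 5 bases of any kind between them, the site of the glucose-responsive factor ChREBP) and the TATA box (TATAAA) in Pklr, and the hypoxia response core (ACGTG, here on the minus strand) in Pkm.
Pklr: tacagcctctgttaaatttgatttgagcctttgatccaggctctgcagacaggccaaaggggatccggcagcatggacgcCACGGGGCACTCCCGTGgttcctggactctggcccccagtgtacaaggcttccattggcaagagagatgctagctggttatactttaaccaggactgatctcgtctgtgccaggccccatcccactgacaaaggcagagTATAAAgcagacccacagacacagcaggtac
Pkm: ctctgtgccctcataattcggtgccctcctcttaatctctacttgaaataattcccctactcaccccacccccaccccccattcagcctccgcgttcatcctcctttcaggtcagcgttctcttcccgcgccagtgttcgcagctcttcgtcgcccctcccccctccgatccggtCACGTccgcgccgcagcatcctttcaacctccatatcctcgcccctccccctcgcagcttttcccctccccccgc
The carbohydrate response element began 170 bases before the start of Pklr. Searched on both strands, it was found in 15 of 32851 promoters of the same length (0.0457%) and in no other of the 35 genes here that had an entry. The core ACGTG, which is part of CACGTG, was in 19.6% of all promoters and in 21 of the 53 promoters (39.6%) of the 35 genes. Another RefSeq start of Pklr and another of Pkm, not shown, had none of the marked sites in the 250 bases before them. These matches describe the letters only.

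**Figure D3:**
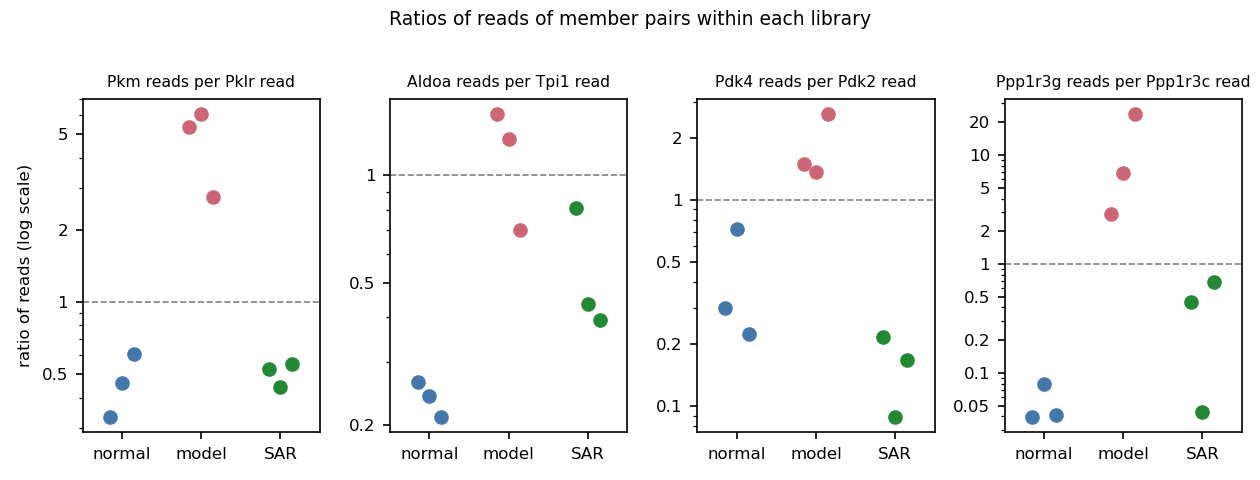
Reads of 1 gene per read of another within each library (points, libraries a, b and c of each group, log scale), with the dashed line at 1. For Pkm per Pklr, Pdk4 per Pdk2 and Ppp1r3g per Ppp1r3c all 3 model libraries lie above 1 and all other libraries below it. For Aldoa per Tpi1, model libraries a and b lie above 1, while model library c (0.702) lies below SAR library a (0.81).

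Among the genes of gluconeogenesis the mitochondrial and the cytosolic carboxykinase differed in direction. Pck2, which encodes the mitochondrial form and is a known target of the amino acid response, stood at 55.7, 78.8 and 58.4 normalised reads in the normal, 368.7, 382.4 and 393 in the model and 128.9, 70.2 and 106.4 in the SAR libraries. The model libraries were tightly grouped and far above the rest. Pck2 rose 5.92-fold (log2 2.57, SE 0.18, limma adjusted p = 5.08e-04) and was lower with SAR than in the model (log2 -1.94, SE 0.23, adjusted p = 0.00115). Pck1, the cytosolic and rate-setting form, had group means of 57748 in normal and 34811 in model liver in the authors' deposited table, a fold of 0.603 with a DESeq adjusted p of 0.0153. In the authors' deposited table of SAR against model the means were 68346 and 31915, a fold of 2.14 with a DESeq adjusted p of 7.21e-05. The model libraries, on the common scale, were at 24850, 30740 and 38500.

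Their promoters are shown for the contrast of the pair, from chr2:173152823-173153072 for Pck1 and chr14:55540016-55540265 for Pck2 (GRCm38.p6, plus strand, RefSeq). Capitals mark the core of the cAMP response element (TGACG, on the minus strand) in Pck1 and the core of the amino acid response element (TGATGNAA, on the minus strand) in Pck2.
Pck1: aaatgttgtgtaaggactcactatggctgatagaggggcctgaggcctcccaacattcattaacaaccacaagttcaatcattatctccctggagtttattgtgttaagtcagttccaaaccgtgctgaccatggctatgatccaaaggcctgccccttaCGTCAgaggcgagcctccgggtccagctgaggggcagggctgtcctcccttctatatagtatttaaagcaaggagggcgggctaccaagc
Pck2: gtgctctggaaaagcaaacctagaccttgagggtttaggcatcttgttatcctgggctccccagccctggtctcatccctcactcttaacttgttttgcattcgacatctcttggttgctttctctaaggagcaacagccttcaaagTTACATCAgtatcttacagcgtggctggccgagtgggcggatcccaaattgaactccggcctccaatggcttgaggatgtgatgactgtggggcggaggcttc
The cAMP element core lay 90 bases and the amino acid element 103 bases before the start. TGACG was found in 20.8% of all promoters and in 13 of the 53 promoters (24.5%) of the 35 genes here, and TGATGNAA in 3.97% of all promoters and in 1 of the 53 (1.89%), that of Pck2. A forkhead site (TGTTTAC) was in 3.65% of all promoters and in 0 of the 53, which says only that these letters are not in this window.

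The other genes of glucose production were lower in the model. Pcx, the pyruvate carboxylase gene that feeds the pathway, stood at 9680, 8704 and 9958 normalised reads in the normal, 2516, 2545 and 5578 in the model and 4859, 7068 and 6664 in the SAR libraries. Normal libraries were all above the others, and model library c lay within the SAR range. Pcx fell by 1.52 on the log2 scale (SE 0.33, limma adjusted p = 0.0114), a result lost without model library b (adjusted p = 0.0585). With SAR it was 0.89 higher than in the model (adjusted p = 0.0708), and 1.27 higher (adjusted p = 0.00102) without model library c. Slc37a4 encodes the transporter that brings glucose 6-phosphate into the endoplasmic reticulum for the last step of glucose release. It stood at 3927, 3552 and 4875 in the normal, 662.6, 686.1 and 1827 in the model and 2285, 3544 and 3429 in the SAR libraries. The 3 groups did not overlap, SAR and normal by a small margin. Slc37a4 fell to 0.231 of its normal level (log2 -2.12, SE 0.38, limma adjusted p = 0.00613) and was 3.22-fold higher with SAR than in the model (log2 1.69, SE 0.38, adjusted p = 0.0123), the latter call lost without model library b (adjusted p = 0.0538) or SAR library b (adjusted p = 0.0565). Fbp1, the fructose bisphosphatase gene, went from a mean of 20421 to 5293.2 in the authors' deposited table, a fold of 0.259 with a DESeq adjusted p of 9.02e-08. Between model (3027, 4194 and 7081) and SAR libraries (4973, 9611 and 10590) it overlapped (log2 0.83, limma adjusted p = 0.133), and it passed without model library c (log2 1.16, adjusted p = 0.0145).

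Pyruvate dehydrogenase kinases shut the entry of pyruvate into the citric acid cycle, and Pdk4 is the form induced by fasting and fatty acids. Pdk4 stood at 341.8, 707.9 and 238.1 normalised reads in the normal, 828.2, 847.2 and 2305 in the model and 236.2, 122.2 and 192.4 in the SAR libraries. Each model library exceeded each normal library, each SAR library lay below each normal library, and model library c was far above the rest. The rise in the model was 1.60 (log2, SE 0.50, limma adjusted p = 0.0372). It did not pass without any 1 library other than normal library b, and not in the authors' DESeq test (adjusted p = 0.19). The lower level with SAR than in the model was 0.152 of the model level (log2 -2.72, SE 0.40, limma adjusted p = 0.00242), and it passed under all 15 alternatives run. Against normal, the SAR level differed by -1.12 (log2, adjusted p = 0.125), and by -1.47 (adjusted p = 0.0294) without normal library c.

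Pdk1 and Pdk2 went the other way. Pdk1, a form induced by low oxygen, stood at 705.8, 655 and 408.9 in the normal, 185.8, 193.1 and 436.9 in the model and 478.5, 646.2 and 648.9 in the SAR libraries. Model library c lay above normal library c, so the groups overlapped. Pdk1 fell by 1.19 on the log2 scale (SE 0.36, limma adjusted p = 0.0335) and was 1.22 higher with SAR than in the model (SE 0.31, adjusted p = 0.0207). Pdk2, the widely expressed form, stood at 1145, 974.4 and 1060 in the normal, 557.4, 621.2 and 888.1 in the model and 1093, 1384 and 1153 in the SAR libraries, with the model lowest throughout. Pdk2 fell by 0.65 on the log2 scale (SE 0.19, limma adjusted p = 0.0321), though not in the authors' DESeq test (adjusted p = 0.0575), and was 0.83 higher with SAR (SE 0.20, limma adjusted p = 0.016). Each of these 4 calls was lost in at least 3 of the fits without 1 library, at limma adjusted p up to 0.12 for Pdk1 and 0.113 for Pdk2. Reads of Pdk4 per read of Pdk2 were 0.225 to 0.726 in the normal, 1.36 to 2.60 in the model and 0.0883 to 0.216 in the SAR libraries.

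Among the 7 glycogen genes 1 rose and 4 fell in the model, and 4 were higher with SAR than in the model. The shares of all genes tested were 20.0%, 19.3% and 12.3% in turn. These 7 genes held both the largest rise and the largest fall of the 35 genes tested in the model. The subunits Ppp1r3b, Ppp1r3c and Ppp1r3g each bring protein phosphatase 1 to glycogen, where it activates glycogen synthase. Ppp1r3c stood at 464.7, 473.7 and 745.1 normalised reads in the normal, 61.9, 37.4 and 32.7 in the model and 361.5, 964.4 and 185.9 in the SAR libraries. All model libraries were far below the rest, and the SAR libraries spread on both sides of the normal ones. Ppp1r3c was at 0.079 of its normal level in the model (log2 -3.66, SE 0.29, limma adjusted p = 7.51e-04) and 9.3-fold higher with SAR than in the model (log2 3.22, SE 0.52, adjusted p = 0.00382). The second call did not pass in the authors' DESeq test (adjusted p = 0.0811). Ppp1r3b, the subunit most used in liver, stood at 2694, 1963 and 1643 in the normal, 347.9, 380.1 and 479.9 in the model and 2420, 4185 and 1895 in the SAR libraries. Again the model libraries were lowest and the other groups overlapped. Ppp1r3b fell to 0.194 of its normal level (log2 -2.36, SE 0.21, limma adjusted p = 9.07e-04) and was 6.7-fold higher with SAR than in the model (log2 2.74, SE 0.28, adjusted p = 7.12e-04).

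Ppp1r3g, a subunit known to be raised by fasting in liver, moved against the other subunits. It stood at 18.2, 37.8 and 30.9 normalised reads in the normal, 178.6, 258.7 and 775.7 in the model and 163.5, 42.4 and 128.2 in the SAR libraries. The groups did not overlap, with normal lowest and model highest. It rose 11.5-fold in the model (log2 3.52, SE 0.54, limma adjusted p = 0.00354). With SAR the difference from the model was -1.77 (log2, SE 0.60, adjusted p = 0.0547), which passed with upper quartile scaling (adjusted p = 0.0494), with all 9 libraries in 1 fit (0.0486) and without SAR library a (0.0498). Against normal the SAR level was 1.76 higher on the log2 scale (adjusted p = 0.0858). Reads of Ppp1r3g per read of Ppp1r3c were 0.0393 to 0.0797 in the normal, 2.88 to 23.7 in the model and 0.0439 to 0.69 in the SAR libraries.

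The promoter of Ppp1r3c is shown because the gene had the largest fall of the 35 genes tested in the model. It covers chr19:36736605-36736854 on the minus strand (GRCm38.p6, RefSeq), with capitals for the E-box CACGTG and for ACGTG on either strand.
Ppp1r3c: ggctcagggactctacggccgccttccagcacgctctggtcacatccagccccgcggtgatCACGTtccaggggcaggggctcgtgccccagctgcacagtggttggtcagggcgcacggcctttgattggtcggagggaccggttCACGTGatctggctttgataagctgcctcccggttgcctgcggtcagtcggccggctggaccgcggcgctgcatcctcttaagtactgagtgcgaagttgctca
The E-box lay 104 bases before the start. CACGTG was found in 7.15% of all promoters and in 7 of the 53 promoters (13.2%) of the 35 genes with an entry, which belong to Irs1, Irs2, Ldha, Pcx, Pdk2, Pfkfb3 and Ppp1r3c. Gys2, Ppp1r3b and Insr had no entry.

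**Figure D4:**
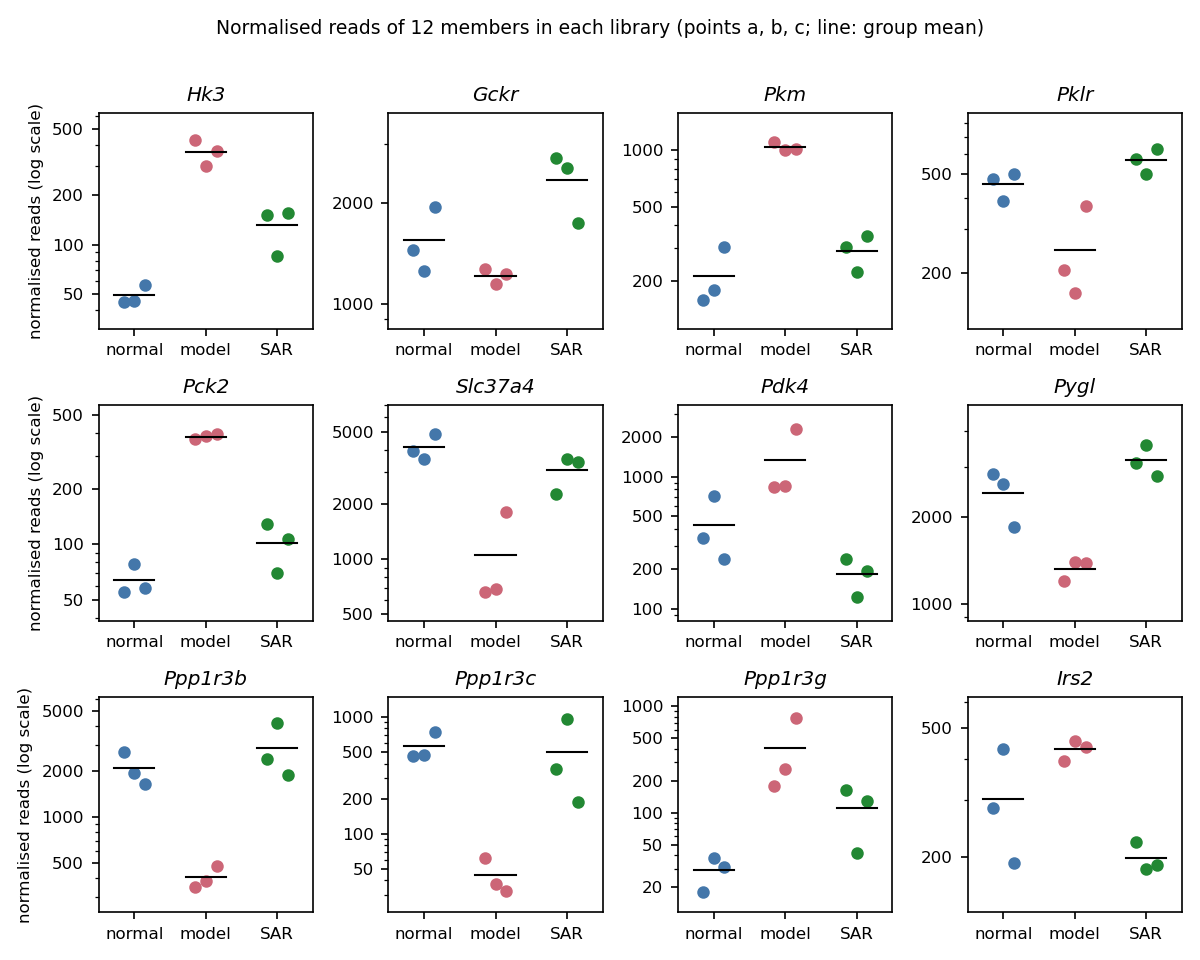
Normalised reads (log scale) of 12 of the genes in the normal, model and SAR libraries, with points for libraries a, b and c and a line at the group mean. In Ppp1r3b, Ppp1r3c, Pygl and Slc37a4 the model libraries are the lowest, in Hk3, Pkm, Pck2, Pdk4 and Ppp1r3g the highest, and in Irs2 the SAR libraries lie below the model libraries.

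Of the enzymes of glycogen itself, Pygl moved most plainly. Pygl, the liver phosphorylase that breaks glycogen down, stood at 2835, 2609 and 1855 normalised reads in the normal, 1203, 1397 and 1383 in the model and 3093, 3574 and 2794 in the SAR libraries. The model libraries were lowest, and normal and SAR libraries overlapped by a small margin. Pygl fell by 0.85 on the log2 scale (SE 0.19, limma adjusted p = 0.0127), a result lost without normal library a (adjusted p = 0.053), and was 2.37-fold higher with SAR than in the model (log2 1.24, SE 0.17, adjusted p = 0.00181). Gys2, the liver glycogen synthase, did not pass in any comparison. It stood at 3701, 3072 and 3896 in the normal, 1005, 1065 and 5207 in the model and 1981, 1912 and 4211 in the SAR libraries. Model library c was the highest of the 9, while model libraries a and b were the lowest. Without model library c, Gys2 was lower in the model than in normal liver (log2 -1.77, limma adjusted p = 7.36e-04) and higher with SAR than in the model (log2 1.28, adjusted p = 0.00739). Gbe1, the branching enzyme, stood at 704.8 to 739.2 in the normal and at 243.4, 321.3 and 645.7 in the model libraries, and fell by 0.96 on the log2 scale (SE 0.32, adjusted p = 0.0478). That call was lost with upper quartile scaling, with limma-voom and without any 1 library other than model library c (adjusted p 0.0522 to 0.143). Ugp2, which makes the activated glucose that synthase uses, overlapped between model and normal libraries. It was higher with SAR (3967, 5048 and 4579) than in the model (1976, 2531 and 3724) by 0.77 on the log2 scale (SE 0.25, limma adjusted p = 0.0489), a call lost under 8 of 15 alternatives (adjusted p up to 0.158).

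At the insulin receptor and its substrates, Insr fell and the substrate genes differed from each other. Insr stood at 1857, 1709 and 2332 normalised reads in the normal, 991.7, 1018 and 1260 in the model and 1398, 1614 and 1648 in the SAR libraries. The 3 groups formed separate steps. It fell by 0.85 on the log2 scale (SE 0.18, limma adjusted p = 0.0094), a call kept under all 16 alternatives, and was 0.52 higher with SAR than in the model (SE 0.16, adjusted p = 0.0409). The second call was lost under 6 of 15 alternatives, the authors' DESeq test (adjusted p = 0.122) among them. Irs2, whose transcript insulin represses in liver, stood at 283.3, 430.6 and 191.8 in the normal, 396.1, 456.4 and 435.3 in the model and 221.9, 183.9 and 188.5 in the SAR libraries. Every SAR library was below every model library, and the normal libraries spread over both ranges. Irs2 was lower with SAR than in the model (log2 -1.11, SE 0.15, limma adjusted p = 0.00189), a call kept under all 15 alternatives, and its difference between model and normal was 0.58 (adjusted p = 0.124), which passed without normal library b (log2 0.88, adjusted p = 0.0281). Irs1 had 19.8 to 79.7 normalised reads and passed in no comparison, with a log2 difference of -0.91 (limma adjusted p = 0.0998) in the model. Reads of Irs2 per read of Insr were 0.0822 to 0.252 in the normal, 0.346 to 0.448 in the model and 0.114 to 0.159 in the SAR libraries.

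Model library c lay apart from model libraries a and b in many of these genes. Its log2 value was more than 1 above the mean of the other model libraries for 9 of the 38 genes, where 4.48% of all genes with a mean of at least 10 lay as far above. These were Slc2a2 (1.95), Pcx (1.14), Slc37a4 (1.44), Pdk1 (1.20), Pdk4 (1.46), Gys2 (2.33), Gbe1 (1.20), Ppp1r3g (1.85) and Pklr, the last just past the limit. Only Pfkp lay more than 1 below (-1.11), where 8.81% of all genes did. The median over the 38 genes was 0.45, beside -0.01 over all genes.

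**Figure D5:**
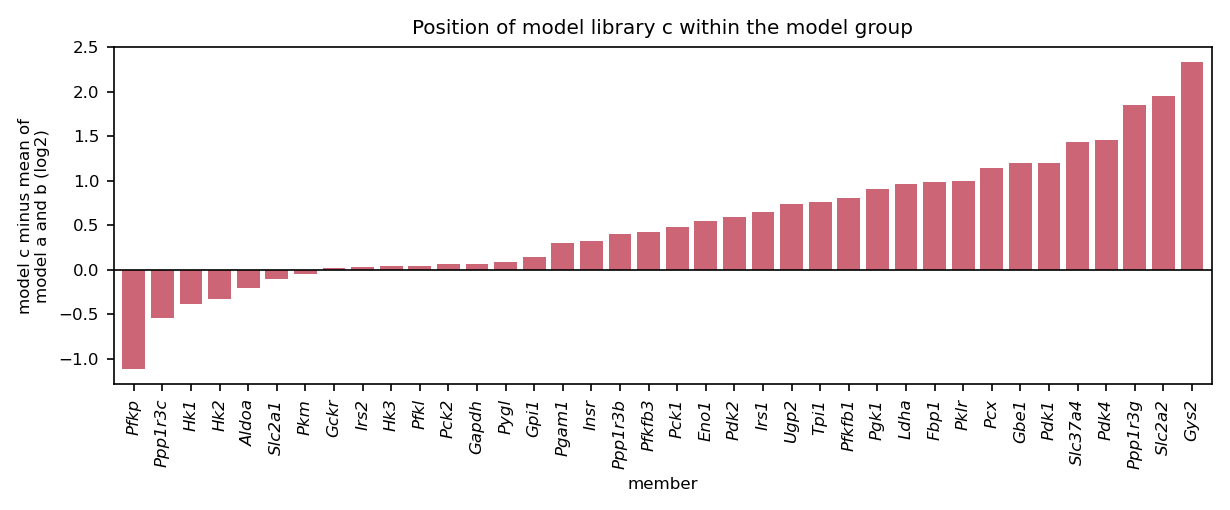
Log2 value of each of the 38 genes in model library c minus its mean in model libraries a and b (bars), sorted. Gys2 (2.33) and Slc2a2 (1.95) are at the upper end and Pfkp (-1.11) at the lower end.

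Further genes of these pathways, 156 on 7 lists, were counted in the same fits. In the model, 27 of 147 tested rose and 48 fell, with a median log2 fold change of -0.20. Over all genes tested, 20.0% rose and 19.3% fell, with a median of 0.02. With SAR, 29 of 147 were higher and 18 lower than in the model, with a median of 0.13, and against normal 4 of 142 were higher and 3 lower. Of all genes tested, 12.3% were higher and 16.5% lower with SAR than in the model, and 3.53% were called against normal. The counts of the single lists below stand beside these same shares. Without model library c, 52 of 146 were higher and 21 lower with SAR than in the model. In that fit 2466 of all 12441 genes tested were higher and 2663 lower. The higher genes of the lists then numbered 13 of 22 (gluconeogenesis and its regulators), 10 of 22 (glycolysis isoforms), 9 of 13 (sugar transport), 5 of 24 (glycogen) and 7 of 38 (insulin signalling), and in the model 6 of 13 of the sugar transport list fell. Without that library, 2925 of all 12458 genes tested fell in the model. Without normal library c, 9 of 142 were higher and 9 lower with SAR than in normal liver, where 547 of all 11746 genes tested were higher and 558 lower. Gluconeogenesis and its regulators had 2 that rose and 12 that fell among 22. G6pc, the catalytic subunit of glucose-6-phosphatase and the partner of Slc37a4, stood at 6119, 5114 and 3060 normalised reads in the normal, 1337, 2001 and 2021 in the model and 3607, 4265 and 3196 in the SAR libraries, with the model lowest. It fell by 1.38 on the log2 scale (SE 0.30, limma adjusted p = 0.0106) and was 1.06 higher with SAR than in the model (SE 0.22, adjusted p = 0.00894). Got1, a cytosolic transaminase that serves the malate-aspartate shuttle, fell by 2.38 (limma adjusted p = 0.00755) and Adcy9, an adenylate cyclase, by 1.84 (adjusted p = 0.0171). With SAR, 6 of the 22 were higher than in the model and 2 lower, led by Sik1, a kinase that restrains the gluconeogenic programme (log2 -2.23, limma adjusted p = 2.07e-04), and Hnf4a, a hepatocyte nuclear receptor (log2 1.20, adjusted p = 0.00641).

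Glycolysis isoforms and the genes of lactate and pyruvate entry had 6 that rose and 11 that fell among 23 in the model. The D-lactate dehydrogenase gene Ldhd went from 1580, 1681 and 2207 to 347.9, 361.8 and 647.3 normalised reads and stood at 1203, 1960 and 1695 with SAR (log2 -2.05, limma adjusted p = 0.0021 in the model and log2 1.87, adjusted p = 0.00235 for SAR against model). The lactate exporter gene Slc16a3 rose by 2.34 (limma adjusted p = 0.00702) and the neuronal enolase gene Eno2, at 0 to 36.7 normalised reads, by 2.95 (adjusted p = 0.0462). With SAR, 6 were higher and 3 lower than in the model, among them Pfkfb4 (log2 -1.81, limma adjusted p = 0.00252) and Ldhb (log2 -1.39, adjusted p = 0.0114). The pentose phosphate list had 5 that rose and 3 that fell among 10. Its oxidative enzymes G6pdx (log2 1.91, limma adjusted p = 0.00867) and Pgd (log2 1.36, adjusted p = 0.00214) rose and Prps1, which makes phosphoribosyl pyrophosphate, fell (log2 -1.14, adjusted p = 0.00749). With SAR 2 of the 10 were higher and 2 lower than in the model, and G6pdx (log2 -1.60, adjusted p = 0.00115) and Pgd (log2 -1.30, adjusted p = 0.00102) were the lower ones.

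Further glycogen genes had 3 that rose and 8 that fell among 24 in the model, and 3 higher and 3 lower with SAR. Of all genes tested, 12.3% were higher and 16.5% lower with SAR than in the model. The rises were in Pygb and Pygm, phosphorylases of brain and muscle (log2 1.67 and 1.55, limma adjusted p = 0.0142 and 0.0256), and in Pgm2, a phosphomutase gene (log2 1.43, adjusted p = 0.0095). The phosphorylase genes thus differed by isoform, since Pygl fell. With SAR, Pygb (log2 -1.90, limma adjusted p = 0.0102), Pgm2 (log2 -1.74, adjusted p = 0.0164) and the targeting subunit gene Ppp1r3d (log2 -1.71, adjusted p = 0.0362) were lower than in the model. Among 38 insulin signalling genes, 5 rose and 7 fell in the model and 26 did not pass, where 20.0% of all genes tested rose and 19.3% fell. Pde3b, the phosphodiesterase through which insulin lowers cAMP, fell by 1.23 (limma adjusted p = 0.00216), and Trib3, a stress-induced inhibitor of Akt, and the receptor gene Igf1r rose (log2 1.61 and 1.15, adjusted p = 0.0116 and 0.0318). With SAR, 3 were higher and 6 lower than in the model, the latter including the adaptor gene Grb10 (log2 -1.75, limma adjusted p = 0.0127), Igf1r (log2 -1.52, adjusted p = 0.0101) and Tbc1d1, which acts on glucose transporter traffic (log2 -1.27, adjusted p = 0.00964).

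On the list of sugar transport, fructose and galactose, 2 of 13 rose and 3 fell in the model, and 5 of 13 were higher with SAR than in the model. The fructose transporter gene Slc2a5, at 0.763 to 67.2 normalised reads, fell (log2 -3.67, adjusted p = 0.00564). Khk, the fructokinase gene, was higher with SAR than in the model (log2 1.32, limma adjusted p = 0.00766), as were the urate and sugar transporter gene Slc2a9 (log2 1.25, adjusted p = 0.0282) and the galactose mutarotase gene Galm (log2 0.87, adjusted p = 0.0107).

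Glucose-responsive transcription had 4 genes that rose and 4 that fell among 17 in the model. Mlxipl, which encodes ChREBP, was not among them, at 1566, 1422 and 1033 normalised reads in the normal and 1432, 1259 and 1284 in the model libraries. With SAR it stood at 4546, 3337 and 2381, above every other library, a log2 difference of 1.32 from normal (SE 0.25, limma adjusted p = 0.0372) and of 1.32 from the model (SE 0.23, adjusted p = 0.00538). Myc (log2 1.95, limma adjusted p = 9.64e-04), Prkab2 of AMP kinase (log2 2.19, adjusted p = 0.00512) and Srebf1, a factor that insulin induces (log2 1.65, adjusted p = 0.00547), rose in the model. With SAR, Myc (log2 -2.08, limma adjusted p = 4.84e-04) and Prkab2 (log2 -1.43, adjusted p = 0.0124) were lower than in the model, and Klf15, a factor of fasting glucose production, was higher (log2 1.56, adjusted p = 9.43e-04). Against normal liver, the genes higher with SAR included Galm (log2 0.67, limma adjusted p = 0.0497), Mlxipl and Srebf1 (log2 1.28, adjusted p = 0.034). Got1 (log2 -1.95, adjusted p = 0.047), Sik1 (log2 -1.11, adjusted p = 0.0258) and Igfbp1, an insulin-repressed secreted protein gene (log2 -1.67, adjusted p = 0.0181), were the lower ones. Calls of SAR against normal rest on single libraries, since all genes called numbered 416, and 6 to 1105 with 1 library left out. How these further genes fared in such fits is not reported here.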

How the data were processed

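RNA of mouse liver was measured in 9 libraries of 3 groups (normal, MCD model, MCD with SAR, 3 each). The extraction (Trizol) and the library kit (NEBNext Ultra) are given per the labels' protocols, and the build, mm9, per the submitters' processing notes. Aligner, counter, annotation and strand setting: not given in the sources used here. Per the file headers, the deposited signal of a gene is a group mean of reads divided by size factors. The deposited ratio is the fold of 2 such means, the deposited log2 is the log2 of this fold, and the deposited p-values come from the authors' DESeq test.

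Each deposited mean is a sum of 3 whole read numbers weighted by library constants, and its 15 digits allowed these numbers to be solved. Every gene with a mean under 3000 had 1 solution (14531 in normal, 15625 in model and 14468 in SAR libraries). Both tables hold the model group, and the 15625 genes solved from either table had the same reads in 15625 cases. Of 2000 normal means moved by a tiny amount, 0 were solved. Of the abundant genes, 43 in normal and 42 in SAR libraries had several solutions and were left without values. Of 16521 gene IDs 16490 had a symbol, and 16430 were recovered in all 9 libraries. Size factors were medians of ratios over the 9 libraries. Recomputed over the libraries of each deposited table alone and brought to a common scale, such factors differed from the authors' by at most 0.264%. The factors over the 9 libraries were not compared in this way.

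Genes with a mean of at least 10 in a comparison were tested two-sided with limma 3.58.1 (R 4.3.3, trended variance) on log2(value + 1), with only the 2 groups compared and Benjamini-Hochberg adjustment over all genes tested. The scripts were tested on simulated data. An exact permutation test of 3 against 3 cannot go below p = 0.1, so none was run. The alternatives were other pseudocounts, filters, scalings, fits and tests, and leaving out each library. The 38 genes, the further pathway lists and the cell marker lists were chosen with earlier results of these data known. All 38 genes are named, and of each further list up to 3 called genes with the largest change in a comparison. Some genes that this rule selects are not reported here. Promoters came from RefSeq (GRCm38.p6), with 35 of the 38 genes matched. The number of libraries, 3 a group, limits the precision.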

Additional observations from a re-analysis of the deposited data

How the results depend on the processing

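No paired analysis was possible because the recovered libraries carry no replicate numbers. The count of all genes called in the model against normal was 4897, and 2438 to 5771 when 1 library was left out. For SAR against model it was 3586, and 1535 to 5129. For SAR against normal it was 416, and 6 to 1105, so this count rests on single libraries. Of the calls described for the 38 genes, 13 of 23 in the model held under every alternative run, as did 10 of 20 for SAR against model and 0 of 1 for SAR against normal. The log2 differences of some genes that passed no test changed sign, and the cause was not tested. In the model against normal, upper quartile scaling gave 0.0602 for Pfkfb3 and 0.00472 for Ugp2. Leaving out 1 library gave -0.097 to 0.326 for Slc2a1, -0.171 to 0.0745 for Pfkfb3 and -0.33 to 0.127 for Ugp2. For SAR against model, upper quartile scaling gave -0.0515 for Pfkl and -0.0293 for Ldha. The authors' size factors gave 0.0167 for Eno1, and the authors' DESeq test gave 0.00335 for Eno1 and -0.00361 for Ldha. Leaving out 1 library gave -0.0802 to 0.129 for Pfkl, -0.123 to 0.179 for Eno1 and -0.176 to 0.352 for Ldha. For SAR against normal, leaving out 1 library gave -0.346 to 0.0551 for Slc2a1, -0.543 to 0.0178 for Hk1, -0.0728 to 0.176 for Pfkfb1, -0.219 to 0.0574 for Gapdh and -0.216 to 0.177 for Pdk1. The ranges of Gbe1, Ppp1r3c and Irs1 there were -0.263 to 0.0159, -1.075 to 0.109 and -0.371 to 0.229.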
